A study of Homo sapiens with 6 samples.

Results

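The matrix metalloproteases are zinc-dependent endopeptidases that cut collagens and other proteins outside the cell. They were described here as 10 genes of the family, MMP1, MMP2, MMP3, MMP7, MMP9, MMP10, MMP13, MMP14, MMP16 and MMP19, out of 19775 genes with a probe set that carried a single gene symbol. The members, and the gene lists used below, were chosen by name but with earlier results of these data known. Their counts set against all genes are therefore descriptions and not tests of the lists. They were covered by 20 probe sets, with 6 members on 1 probe set each and 4 on several, and the probe set with the highest mean signal over all 6 arrays stood for each gene.

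RNA came from U87-2M1, an invasive subline of the human glioma line U87 that had passed through an experimental lung metastasis assay in animals before it was grown again in culture. Cells transduced with a baculoviral miR-10b decoy vector (3 arrays) were compared with cells transduced with a baculoviral control decoy vector (3 arrays). A decoy is a transcript meant to bind a microRNA in place of its targets. All 6 samples were passage 4 cells of this single line, kept in hypoxia and carrying a baculoviral vector, so no untransduced or normoxic sample enters the comparison. The labels do not say that the 3 samples of a group were separate cultures, and the p-values below therefore measure sample-to-sample spread that could be only technical. In bulk RNA, fewer cells that express a gene and less RNA per cell cannot be told apart.

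Metalloproteases are made as inactive zymogens, and removal of the propeptide by other proteases exposes the catalytic site. Most are secreted, while the membrane types, MMP14 and MMP16 among these 10, stay anchored in the plasma membrane. MMP14 activates MMP2 at the cell surface in a complex with the inhibitor TIMP2. The family is known in glioma for its part in the breakdown of brain matrix ahead of migrating cells, and much of its control lies at transcription, where several members respond to AP-1 and ETS factors.

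The values were linear MAS5 signal intensities, and the brightness of the arrays differed. The mean signal after leaving out 2% of probe sets at each end was 155 to 163 on the 3 miR-10b decoy arrays and 159 to 192 on the control decoy arrays, with control decoy replicate 3 the brightest. Over the 13842 genes tested the median log2 change was -0.14, and each member's change is given both as fitted and relative to that median. Higher and lower refer to limma's moderated test of the fitted change at an adjusted p under 0.05 over all genes tested. By that rule 7.90% of genes passed as higher in miR-10b decoy cells and 18.5% as lower. Quantile normalization gave 16.8% and 17.2%, and centring each array on its median gave 21.4% and 12.4%. As a measure of RNA integrity, the ratio of 3' to 5' actin signal was 8.54 ± 1.77 on miR-10b decoy arrays and 5.73 ± 0.474 on control decoy arrays (SD, n = 3 each, exact permutation p = 0.1, two-sided, the smallest this design allows), and its part in the changes below was not tested. The same ratio for GAPDH was 0.943 ± 0.00747 on miR-10b decoy arrays and 0.945 ± 0.0192 on control decoy arrays (exact permutation p = 0.9). Of 9 glioma markers, VIM, CD44, TNC and CHI3L1 were bright, while the astrocyte markers GFAP (2.05 and 2.89) and S100B (3.06 and 0.34) had mean signals near 0 in miR-10b decoy and control decoy cells. The leukocyte genes PTPRC (6.57 and 5.68) and CD14 (2.82 and 2.05) were also near 0, but CSF1R (47.5 and 55.4) was not. The 7 measured leukocyte markers summed to 94.1 to 132 on miR-10b decoy arrays and 106 to 166 on control decoy arrays. The summed signal of the 9 glioma markers was itself lower, at 25535 to 25747 on miR-10b decoy arrays and 26524 to 31578 on control decoy arrays, and so were those of 7 fibroblast markers (6103 to 6597 and 8677 to 10262), 6 endothelial markers (199 to 209.9 and 272 to 328) and 6 lung epithelial markers (112 to 169.8 and 188 to 210.4). None of these 4 sums overlapped between the groups, and their part in the results was not tested. The glioma sum was mostly VIM, CD44 and TNC, none of which passed. NES was the 1 glioma marker called, lower (log2 change -0.47, limma adjusted p = 0.00592). That call ended when probe sets were averaged. SOX2 (14.1 and 26.1) did not pass. OLIG2 (21.2 and 5.29) lay under the filter on dim genes described below, with every miR-10b decoy array above every control decoy array. The fibroblast sum was mostly COL1A1 and COL1A2, and gene by gene that list had 1 lower member (COL1A2) and 2 higher ones, PDGFRA (log2 change 1.52, limma adjusted p = 3.48e-16) and DCN (0.70, adjusted p = 0.00638), with a median change of 0.01. The endothelial markers VWF, CDH5 and CLDN5 and the lung epithelial markers CDH1, NKX2-1 and SCGB1A1 lay under the filter on dim genes described below, with group means from 1.05 to 6.53. Of the fibroblast, endothelial, lung epithelial and leukocyte markers 7, 3, 2 and 3 lay above that filter. Among them the endothelial markers PECAM1 (log2 change -0.51, limma adjusted p = 0.0130) and TEK (-0.67, adjusted p = 0.0043) were lower, and KDR did not pass. Both calls ended when probe sets were averaged. The lung epithelial markers SFTPB (92.7 and 115) and SFTPC (40.9 and 54.6) did not pass. Neither did the 3 leukocyte markers above the filter, CSF1R, ITGAM and CD3E.

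Of the 10 metalloproteases, 9 lay above the filter on dim genes (a mean signal of 15.6 over the 6 arrays) and were tested. MMP1, MMP3 and MMP14 were higher with the miR-10b decoy, MMP2 was lower, and 5 did not pass, against 7.90% of all genes higher and 18.5% lower. The changes were modest, between 1.30-fold and 1.52-fold for the 3 higher genes. The same 3 higher and 1 lower members passed after quantile normalization, against 16.8% and 17.2% of all genes. Without an intensity trend in the variance 1 member was higher and 1 lower, against 4.57% and 9.59% of all genes. With no variance shared across genes 0 were higher by limma and 1 was lower, against 1.48% and 2.36% of all genes. At an unadjusted p under 0.05 in that setting 4 were higher, among them MMP10, which passed the filter only through its miR-10b decoy arrays, and 3 without it, against 8.43% of all genes higher and 19.8% lower. The median log2 change of the 9 tested members was 0.19 (0.10 without MMP10), against -0.14 for all tested genes. The median of the 9 was 0.05 without control decoy replicate 2, 0.31 without control decoy replicate 3 and 0.03 with probe sets averaged, where that of all genes was -0.18, -0.04 and -0.13.

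**Figure D1:**
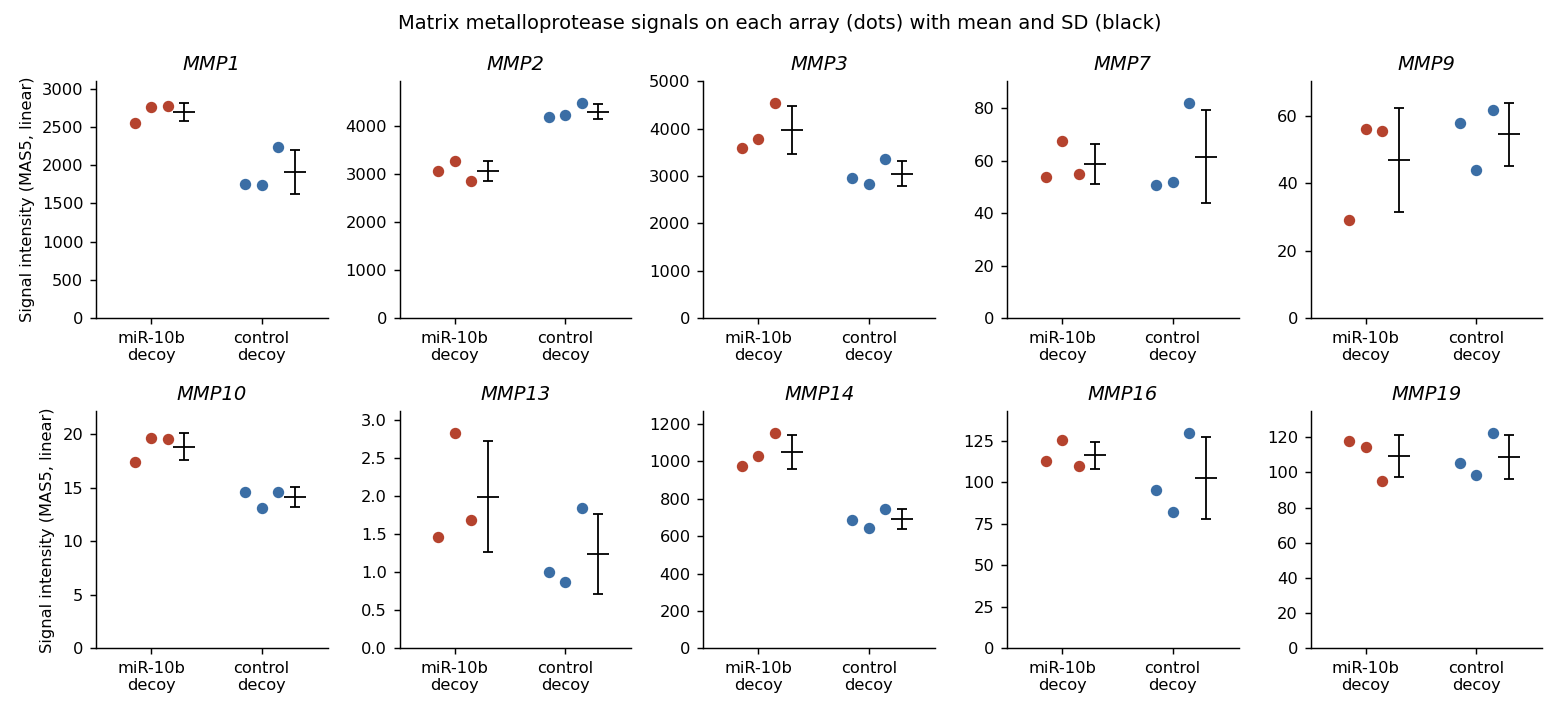
Signal intensity (linear, from 0) of each of the 10 metalloproteases on the 3 miR-10b decoy arrays (red) and the 3 control decoy arrays (blue), with the group mean and SD in black. The miR-10b decoy arrays of MMP1, MMP3, MMP10 and MMP14 all lie above the control decoy arrays, those of MMP2 all lie below, and the groups overlap for the other 5 genes.

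MMP14, the membrane-anchored protease that activates MMP2 and cuts fibrillar collagen around the cell, had signals of 972, 1028 and 1152 on the miR-10b decoy arrays and 684, 644 and 745 on the control decoy arrays. The groups did not overlap, and miR-10b decoy replicate 3 was the highest. The means were 1050.3 ± 92.1 with the miR-10b decoy and 691 ± 51.0 with the control decoy (SD, n = 3 each), 1.52-fold. The fitted log2 change was 0.60 (SE 0.13, limma adjusted p = 1.37e-04), or 0.74 relative to the median gene, and the call was kept when any single array was left out. It ended when no variance was shared across genes (adjusted p = 0.0579).

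MMP14 was read by 4 probe sets, which allows a check within the array. The second brightest had 455, 561 and 499 with the miR-10b decoy against 288, 287 and 342 with the control decoy. The third had 384, 405 and 378 with the miR-10b decoy against 277, 233 and 244 with the control decoy. Both were higher by log2 changes of 0.71 and 0.62 when every probe set was fitted by itself (limma adjusted p = 0.00511 and 0.00567). The dimmest, of a kind whose probes may bind other transcripts, had 133, 129 and 120 with the miR-10b decoy against 121, 106 and 87.7 with the control decoy, overlapped between the groups and did not pass (log2 change 0.27, adjusted p = 0.322).

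The promoter window of MMP14 is shown because MMP14 had the largest change of the tested members. It holds 250 bases before and 50 after the gene's start, from RefSeq (GRCh38.p14, plus strand, chr14:22836335-22836634), with the only match to the searched motifs in capitals.
MMP14 promoter: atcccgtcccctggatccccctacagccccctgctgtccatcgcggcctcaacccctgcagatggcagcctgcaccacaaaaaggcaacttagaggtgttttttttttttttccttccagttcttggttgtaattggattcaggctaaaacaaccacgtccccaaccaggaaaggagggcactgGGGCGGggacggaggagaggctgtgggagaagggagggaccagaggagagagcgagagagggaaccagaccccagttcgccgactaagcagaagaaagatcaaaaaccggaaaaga
The capitals mark an Sp1 box, GGGCGG, at -66 to -61 from the start. The motifs searched, on both strands, were AP-1 (TGANTCA), the ETS motif AGGAAG, the TATA box TATAAA and the Sp1 box GGGCGG, which were present in 7.71%, 33.6%, 11.5% and 45.0% of 35116 promoter windows of the same length. No AP-1, ETS or TATA match lies in these letters of MMP14.

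MMP1, interstitial collagenase, which makes the first cut in fibrillar collagen, had signals of 2555, 2758 and 2775 on the miR-10b decoy arrays and 1753, 1743 and 2238 on the control decoy arrays. All 3 miR-10b decoy arrays lay above every control decoy array, and control decoy replicate 3, the brightest array as a whole, came closest. The means were 2696 ± 122 with the miR-10b decoy and 1911 ± 283 with the control decoy (SD, n = 3 each), 1.41-fold. The log2 change was 0.50 (SE 0.13, limma adjusted p = 0.00109), or 0.64 relative to the median gene. It was 0.67 after quantile normalization (adjusted p = 3.67e-06), and the call ended without the intensity trend in the variance (adjusted p = 0.0521) and without shared variance (adjusted p = 0.104).

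MMP3, stromelysin 1, which cuts proteoglycans, laminin and fibronectin and activates other zymogens including that of MMP1, had 3585, 3787 and 4548 on the miR-10b decoy arrays and 2966, 2831 and 3348 on the control decoy arrays. The groups did not overlap, but miR-10b decoy replicate 1 was close to control decoy replicate 3. The means were 3973 ± 508 with the miR-10b decoy and 3049 ± 268 with the control decoy (SD, n = 3 each), 1.30-fold, with a log2 change of 0.38 (SE 0.13, limma adjusted p = 0.0167), or 0.52 relative to the median gene. This was the least stable of the 4 calls. It ended when miR-10b decoy replicate 2 (adjusted p = 0.0629), miR-10b decoy replicate 3 (adjusted p = 0.249) or control decoy replicate 2 (adjusted p = 0.123) was left out and when dim genes were kept (adjusted p = 0.0852), but strengthened after quantile normalization (0.55, adjusted p = 3.62e-04) and without control decoy replicate 3 (0.45, adjusted p = 0.00164). The call also ended with no intensity trend, with no shared variance (limma adjusted p = 0.159) and in the setting with probe sets averaged. Fitted among all probe sets one by one, its single probe set did not pass (adjusted p = 0.112).

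MMP2, gelatinase A, which degrades denatured collagen and type IV collagen of basement membranes, moved the other way. Its signals were 3053, 3271 and 2860 on the miR-10b decoy arrays and 4178, 4233 and 4484 on the control decoy arrays. Every miR-10b decoy array lay below every control decoy array, and control decoy replicate 3 was the highest. Mean signals were 3061 ± 206 with the miR-10b decoy and 4298 ± 163 with the control decoy (SD, n = 3 each), a ratio of 0.712, and the log2 change was -0.49 (SE 0.13, limma adjusted p = 0.00128), or -0.35 relative to the median gene. It was -0.32 after quantile normalization (adjusted p = 0.00187), and MMP2 was the only one of the 4 genes still called without shared variance (adjusted p = 0.0474). The other MMP2 probe sets lay at mean signals of 17.8 and 1.54 with the miR-10b decoy and 20.7 and 3.66 with the control decoy, near background, and averaging them with the bright one ended the call (log2 change -0.30, adjusted p = 0.164).

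**Figure D2:**
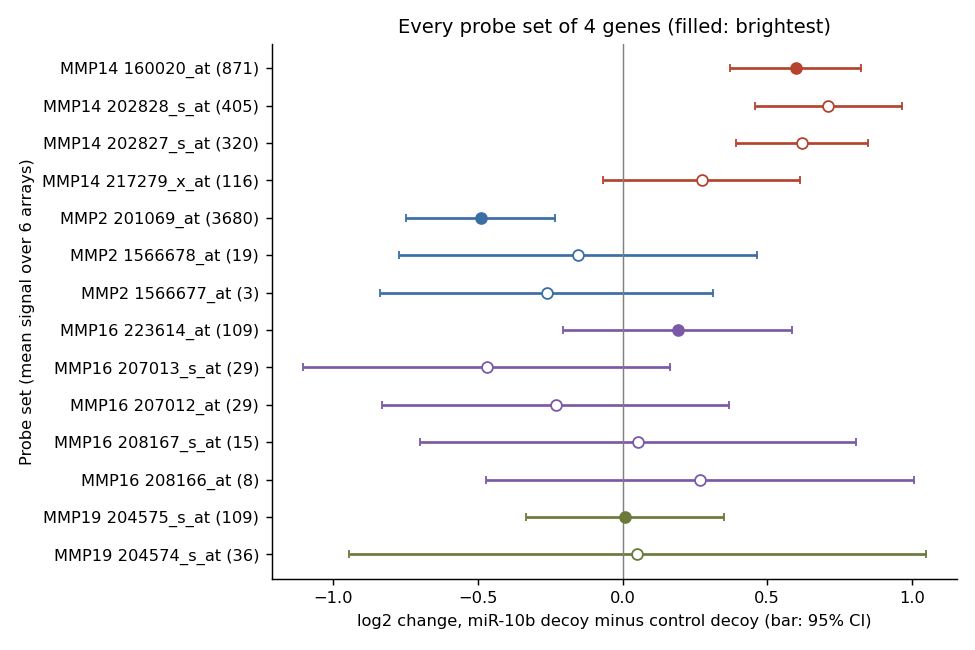
Log2 change (miR-10b decoy minus control decoy) with its 95% confidence interval for every probe set of MMP14, MMP2, MMP16 and MMP19, ordered by brightness within a gene, with the mean signal over the 6 arrays in brackets and the brightest probe set filled. The MMP14 probe sets all lie above 0, though the interval of the dimmest crosses it. Those of MMP16 lie on both sides of 0 with intervals that cross it.

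The gene MMP9 encodes gelatinase B, the other gelatinase. Its signals were 29.2, 56.2 and 55.4 on the miR-10b decoy arrays and 57.9, 43.8 and 61.8 on the control decoy arrays. The groups overlapped, and miR-10b decoy replicate 1 lay well under the other 5 arrays. The log2 change was -0.22 (95% confidence interval -0.69 to 0.25, limma adjusted p = 0.528) and moved to 0.04 without that replicate, so no change was detectable at this precision. For this and the other members that did not pass, a p above the threshold does not show that the groups were equal.

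MMP16, a membrane type like MMP14, had 113, 125 and 110 on the miR-10b decoy arrays and 95.4, 82.1 and 130 on the control decoy arrays. The groups overlapped through control decoy replicate 3, and the log2 change of 0.19 did not pass (95% confidence interval -0.15 to 0.53, limma adjusted p = 0.445). It passed after centring on the array median (0.37, adjusted p = 0.0406) but not after quantile normalization (adjusted p = 0.107). Its other 4 probe sets lay at group means between 7.01 and 34.9, with 2 changes below 0 and 2 above, none past the test, and their mean with the brightest changed by -0.04. MMP19, a secreted member also known as RASI-1, had 118, 115 and 95.3 on the miR-10b decoy arrays and 105, 98.4 and 122 on the control decoy arrays. These overlapped throughout, with a log2 change of 0.01 (95% confidence interval -0.33 to 0.34, adjusted p = 0.981), and the second MMP19 probe set, 0.05, did not pass either.

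**Figure D3:**
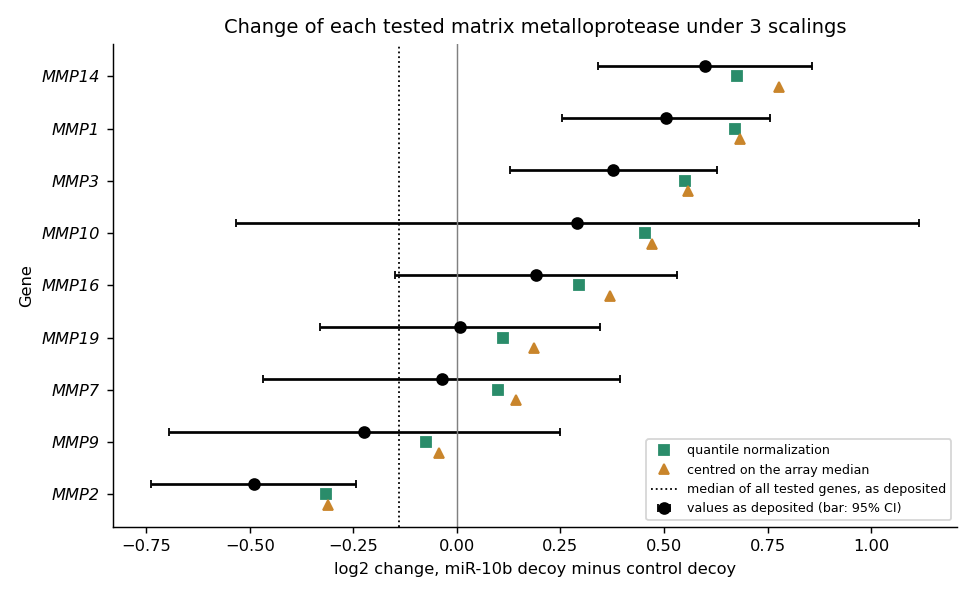
Log2 change (miR-10b decoy minus control decoy) of the 9 tested metalloproteases as fitted to the deposited values (black, with the 95% confidence interval), after quantile normalization (squares) and after centring on the array median (triangles), with the median of all tested genes dotted. MMP14, MMP1 and MMP3 lie above 0 and MMP2 below 0 under all 3 scalings, and both rescalings move every gene to the right.

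MMP1, MMP3, MMP7, MMP10 and MMP13 share a cluster on chromosome 11. In the RefSeq order the cluster runs MMP7, MMP20, MMP27, MMP8, MMP10, MMP1, MMP3, MMP12, MMP13, so that the 2 higher genes are direct neighbours. MMP10, stromelysin 2, a close relative of MMP3 in sequence and substrates, had 17.4, 19.6 and 19.5 on the miR-10b decoy arrays and 14.6, 13.1 and 14.6 on the control decoy arrays. The groups did not overlap, but the control decoy arrays all lay under the filter level, and the log2 change of 0.29 did not pass (95% confidence interval -0.53 to 1.12, limma adjusted p = 0.654). Among all tested genes, 11.0% had every miR-10b decoy array above every control decoy array and 29.3% had every one below, and 3 and 1 of the 8 members tested apart from MMP10 did so. MMP10 is left out of that count because it passed the filter only through its miR-10b decoy arrays.

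MMP12, macrophage elastase, on the other side of MMP3, had mean signals of 149 ± 10.9 with the miR-10b decoy and 141 ± 46.6 with the control decoy (SD, n = 3 each, limma adjusted p = 0.650 for a log2 change of 0.11). MMP7, matrilysin, a small member without the hemopexin domain, had 53.6, 67.4 and 54.9 on the miR-10b decoy arrays and 50.6, 51.9 and 82.1 on the control decoy arrays. The groups overlapped, with control decoy replicate 3 the highest, and the log2 change was -0.04 (95% confidence interval -0.47 to 0.39, adjusted p = 0.924). MMP13, collagenase 3, lay far under the filter level with 1.46, 2.83 and 1.69 on the miR-10b decoy arrays and 1.01, 0.872 and 1.84 on the control decoy arrays, and was not tested. Of 8 tested genes beside the cluster 4 were lower and 1 was higher, against 18.5% and 7.90% of all genes. The higher one was CFAP300 (log2 change 0.44, limma adjusted p = 0.0180, but -0.00051 averaged over its probe sets and not called without any 1 array other than control decoy replicate 3, adjusted p from 0.0614 to 0.127). The largest lower call was that of BIRC2, an inhibitor of apoptosis gene (log2 change -0.56, limma adjusted p = 3.07e-04, and 0.0590 with no intensity trend). CEP126, a centrosome gene, was lower as well (-0.50, adjusted p = 0.0150), a call that ended after centring (adjusted p = 0.0766) and when miR-10b decoy replicate 3 (0.104) or control decoy replicate 2 (0.0805) was left out. Next to MMP13, DCUN1D5, which acts in cullin neddylation, was lower (log2 change -0.39, limma adjusted p = 0.0167). TMEM123, a membrane protein gene next to MMP7, was the fourth lower one (-0.34, adjusted p = 0.0453). The call of DCUN1D5 ended with the average over its probe sets (adjusted p = 0.996) and when miR-10b decoy replicate 1 (0.126), miR-10b decoy replicate 3 (0.0796) or control decoy replicate 2 (0.0673) was left out. That of TMEM123 ended after centring (adjusted p = 0.189) and without any 1 array other than control decoy replicate 1 (0.0823 to 0.320). After quantile normalization 2 of the 8 were higher and 4 lower, against 16.8% and 17.2% of all genes. After centring 2 were higher and 2 lower, against 21.4% and 12.4%. YAP1, a Hippo pathway coactivator, was the added higher one (0.32, limma adjusted p = 0.00151, and 0.36, limma adjusted p = 8.54e-04). Without miR-10b decoy replicate 3 or control decoy replicate 2 the counts were 0 higher by limma (1 at an unadjusted p under 0.05) and 1 lower. Of 13842 genes, 731 were higher and 1473 lower without the first of these arrays, and 773 and 2236 without the second.

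The promoter windows of MMP7 and MMP10 are shown as the cluster members for which the RefSeq table held a window (GRCh38.p14, minus strand, chr11:102530698-102530997 for MMP7 and chr11:102780579-102780878 for MMP10), with the matched motifs in capitals.
MMP7 promoter: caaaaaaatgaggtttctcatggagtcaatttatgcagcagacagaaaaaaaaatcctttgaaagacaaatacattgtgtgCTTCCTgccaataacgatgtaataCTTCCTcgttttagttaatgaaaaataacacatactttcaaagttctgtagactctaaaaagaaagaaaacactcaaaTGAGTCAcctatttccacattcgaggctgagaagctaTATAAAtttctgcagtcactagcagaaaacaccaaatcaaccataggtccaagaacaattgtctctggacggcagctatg
MMP10 promoter: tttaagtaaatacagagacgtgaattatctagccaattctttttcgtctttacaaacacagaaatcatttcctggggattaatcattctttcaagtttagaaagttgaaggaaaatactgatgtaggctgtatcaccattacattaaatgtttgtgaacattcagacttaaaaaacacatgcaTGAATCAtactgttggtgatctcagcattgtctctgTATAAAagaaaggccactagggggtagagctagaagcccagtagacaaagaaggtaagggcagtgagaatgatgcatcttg
Each has an AP-1 match at -67 to -61 from the start, TGAGTCA in MMP7 and TGAATCA in MMP10, and a TATA box, at -30 to -25 in MMP7 and -31 to -26 in MMP10. MMP7 also has ETS matches on the minus strand at -169 to -164 and -145 to -140. The GC content of the windows is 35.7% for MMP7 and 36.3% for MMP10, against 55.0% for MMP14. Among the windows of 9 other MMP genes, 1 had an AP-1 match (MMP20), 4 a TATA box and 4 an Sp1 box. A match is a description of letters and not a measured site, and neither MMP7 nor MMP10 passed the test.

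Of 13 further members of the family, 12 had a probe set with a single symbol and 5 of these lay above the filter. MMP28, epilysin, was the 1 called, lower, with 23.1, 58.3 and 11.5 on the miR-10b decoy arrays and 53.7, 64.6 and 71.5 on the control decoy arrays. The groups overlapped through miR-10b decoy replicate 2. Its log2 change of -1.08 (limma adjusted p = 9.59e-04) lost the call after quantile normalization (adjusted p = 0.0573) and after centring (adjusted p = 0.0597). It was also lost when miR-10b decoy replicate 3 (-0.66, adjusted p = 0.0739) or control decoy replicate 3 (-0.99, adjusted p = 0.0841) was left out. MMP11, MMP12, MMP17 and MMP25 did not pass, so 1 of the 5 was lower, against 18.5% of all genes. The 7 under the filter included MMP8, MMP24 and MMP27, with mean signals of 14.4, 9.67 and 8.81 with the miR-10b decoy and 7.12, 19.2 and 20.1 with the control decoy.

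The natural inhibitors of these enzymes were mostly lower. TIMP2, which both inhibits MMP14 and links it to the MMP2 zymogen, had 1918 ± 98.6 with the miR-10b decoy and 2623 ± 312 with the control decoy (SD, n = 3 each; log2 change -0.44, limma adjusted p = 0.0043; the call ended without miR-10b decoy replicate 3, adjusted p = 0.0642). TIMP3, an inhibitor bound to the matrix, had 20.6 ± 2.81 with the miR-10b decoy and 70.4 ± 10.1 with the control decoy (-1.48, adjusted p = 2.52e-06). TIMP4 (-0.65, adjusted p = 4.51e-05) and the membrane-anchored inhibitor RECK (-1.12, adjusted p = 1.01e-10) were lower as well, though averaging its probe sets ended the RECK call (adjusted p = 0.213). In all 4 of the 6 tested inhibitors were lower and 0 were higher by limma, against 18.5% and 7.90% of all genes. At an unadjusted p under 0.05 the count of higher inhibitors was also 0. A2M did not pass. TIMP1, the broad inhibitor, did not pass in the deposited values (0.08, adjusted p = 0.686) but was higher after quantile normalization (0.20, adjusted p = 0.00689) and without control decoy replicate 3 (0.16, adjusted p = 0.0354).

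A log2 ratio of 2 genes taken within each array depends little on how bright the array is as a whole. The ratio of MMP14 to TIMP2, set against its mean in control decoy cells, was 0.92, 0.95 and 1.26 on the miR-10b decoy arrays and 0.10, -0.01 and -0.08 on the control decoy arrays. The groups lay far apart, with a mean difference of 1.04 (exact permutation p = 0.1, two-sided, adjusted over 5 ratios 0.167). For MMP14 to TIMP3 the difference was 2.08, and for MMP1 to TIMP1 it was 0.42, each with no overlap between the groups and the same p. The separation of the MMP14 ratios was fixed by the single genes. On the miR-10b decoy arrays all MMP14 signals lay above, and all TIMP2 and TIMP3 signals below, those of the control decoy arrays. The p of these ratios is therefore no further evidence. The MMP2 to TIMP2 ratio had values of -0.06, -0.01 and -0.06 on the miR-10b decoy arrays and 0.07, 0.06 and -0.13 on the control decoy arrays, a difference of -0.05 with overlapping groups (exact permutation p = 0.4, adjusted 0.500). The MMP9 to TIMP1 ratio overlapped as well, with a difference of -0.30 set by miR-10b decoy replicate 1 and 0.00626 without it (exact permutation p = 0.6, adjusted 0.600, and 1.0 without it). With 3 arrays against 3, none of these tests can reach 0.05.

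The same measure was added between proteases, after their values were known and with no test. The MMP14 to MMP2 ratio differed by 1.09, that of MMP1 to MMP2 by 0.99 and that of MMP3 to MMP2 by 0.87, each on the log2 scale. For each of the 3 ratios the lowest miR-10b decoy array lay above the highest control decoy array. This follows from the single-gene signals, which did not overlap between the groups for MMP14, MMP1, MMP3 and MMP2, and is no separate result.

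**Figure D4:**
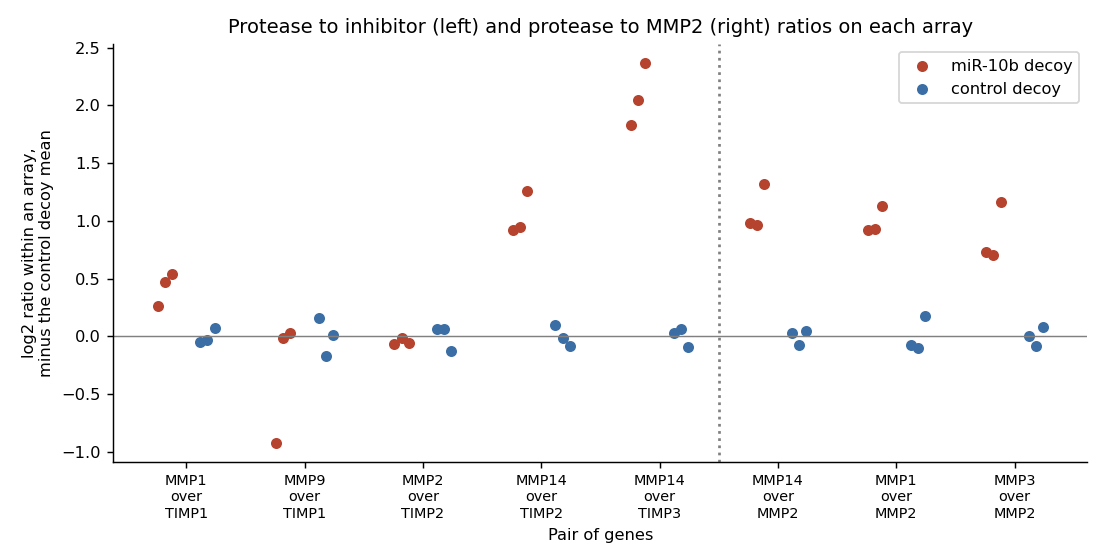
Log2 ratio of 2 genes within each array, minus the mean of the control decoy arrays, for 5 protease to inhibitor pairs (left of the dotted line) and 3 protease to MMP2 pairs (right), with miR-10b decoy arrays in red and control decoy arrays in blue. The MMP2 to TIMP2 and MMP9 to TIMP1 ratios overlap between the groups, and the miR-10b decoy arrays lie above the control decoy arrays in the other 6 pairs.

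Of the proteases that activate the zymogens, 10 were tested. Of these, 4 were lower and 0 higher by limma, against 18.5% and 7.90% of all genes, and 0 were higher at an unadjusted p under 0.05. The lower ones were the plasminogen activators PLAU (log2 change -0.34, adjusted p = 0.0337) and PLAT (-0.52, adjusted p = 0.00698), the lysosomal protease CTSB (-0.38, adjusted p = 0.0142) and the membrane serine protease HPN (-0.75, adjusted p = 0.0243). The HPN call ended after quantile normalization (adjusted p = 0.0592) and when miR-10b decoy replicate 2 or 3 or control decoy replicate 1 or 3 was left out (adjusted p from 0.0589 to 0.134). PLAU lost its call when dim genes were kept (adjusted p = 0.166) and with the replicate block (adjusted p = 0.0983). FURIN, the convertase that removes the propeptide of MMP14, did not pass (-0.37, adjusted p = 0.0901), but passed as lower once miR-10b decoy replicate 1 was dropped (-0.53, adjusted p = 0.0436). After quantile normalization 1 activator was higher and 3 lower, against 16.8% and 17.2% of all genes. Centring gave the same counts, against 21.4% and 12.4%. The higher one was PLAUR, the urokinase receptor (0.22, adjusted p = 0.00568, and 0.27, adjusted p = 0.00373), which did not pass in the deposited values (0.09, adjusted p = 0.642). Without any 1 miR-10b decoy array or control decoy replicate 2, the PLAU call (adjusted p from 0.0655 to 0.179) and the CTSB call (adjusted p from 0.0520 to 0.0986) ended, and the PLAT call ended without miR-10b decoy replicate 3 (adjusted p = 0.0636).

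Among 20 tested inducers and surface partners of the family 2 were higher and 7 lower, against 7.90% and 18.5% of all genes. FGF2, a growth factor that raises the expression of several metalloproteases, had 3268, 3438 and 4152 with the miR-10b decoy and 782, 851 and 1089 with the control decoy. These groups were far apart (log2 change 1.99, limma adjusted p = 1.47e-32). LCN2, a lipocalin that binds and stabilises the MMP9 protein, was the other higher one (2.26, adjusted p = 4.14e-21). The growth factors HBEGF (-0.74) and HGF (-0.65), the cytokine IL1A (-0.71) and the collagen receptor subunit ITGA2 (-0.58) were among the lower ones. Their limma adjusted p were 1.82e-06, 1.60e-05, 1.89e-05 and 1.49e-04. The HBEGF call ended in 1 of 16 other settings (adjusted p = 0.132). Averaging the IL1A probe sets ended its call (adjusted p = 0.627). The cytokine IL1B was far brighter, with means of 10150 with the miR-10b decoy and 8401 with the control decoy. It did not pass in the deposited values (0.29, adjusted p = 0.0772). IL1B was higher after quantile normalization (0.45, adjusted p = 3.12e-05) and after centring (0.47, adjusted p = 1.65e-04).

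Among 23 tested transcription factors known from metalloprotease promoters 6 were higher and 3 lower, against 7.90% and 18.5% of all genes. RUNX2, a factor of the MMP13 promoter in bone and cartilage, was higher by a log2 change of 1.33 (limma adjusted p = 1.08e-15), but MMP13 itself stayed under the filter level. Averaged over its probe sets the RUNX2 change was -0.02 (adjusted p = 0.952). The AP-1 subunits FOSL2 (0.61, adjusted p = 6.47e-05) and JUN (0.44, adjusted p = 0.00462) and the ETS factors ETS2 (0.49, adjusted p = 0.00315) and ELF3 (1.28, adjusted p = 1.72e-04) were also higher, and STAT3 was lower (-0.51, adjusted p = 0.00178). Averaging probe sets ended the calls of FOSL2 (adjusted p = 0.316), ETS2 (adjusted p = 0.373) and STAT3 (adjusted p = 0.415), and that of JUN ended without miR-10b decoy replicate 3 (adjusted p = 0.0574) or control decoy replicate 2 (adjusted p = 0.0683). The AP-1 subunit JUNB was lower (-0.39, adjusted p = 0.0383), but not after quantile normalization (adjusted p = 0.199). EGR1 was lower as well (-0.44, adjusted p = 0.00464). The AP-1 subunits FOS (adjusted p = 0.429), FOSB (0.301), FOSL1 (0.783) and JUND (0.661) did not pass in the deposited values.

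Of 25 tested matrix substrates 8 were lower and 3 higher, against 18.5% and 7.90% of all genes. COL1A2, a chain of the type I collagen that MMP1 and MMP14 cut, had a log2 change of -0.96 (limma adjusted p = 9.87e-11), and the matrix proteins THBS1 and SPARC had -1.15 and -0.77. The other chain of type I collagen, COL1A1, did not pass (-0.31, adjusted p = 0.0573). The collagen chains COL8A1 (-0.69, adjusted p = 5.42e-06) and COL5A1 (-0.55, adjusted p = 6.08e-04) were lower. The collagen chain COL7A1 was higher (0.48, limma adjusted p = 0.00468), a call that ended when probe sets were averaged. The proteoglycan BCAN was higher (1.06, adjusted p = 6.48e-06), a call that its averaged probe sets did not give (adjusted p = 0.645). With no variance shared across genes, the counts higher and lower were 0 and 2 for the inhibitors, 0 and 0 for the activators, 2 and 2 for the inducers, 1 and 0 for the transcription factors and 1 and 3 for the substrates, by the same limma threshold. By that threshold 1.48% of all genes were higher and 2.36% lower. The unadjusted counts there were 0 and 5, 0 and 6, 2 and 8, 6 and 3, and 3 and 12 in the same order, against 8.43% of all genes higher and 19.8% lower. After centring, 6 substrates were higher and 8 lower, 8 transcription factors higher and 2 lower, and 4 inducers higher and 7 lower. Of all genes 21.4% were then higher and 12.4% lower.

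**Figure D5:**
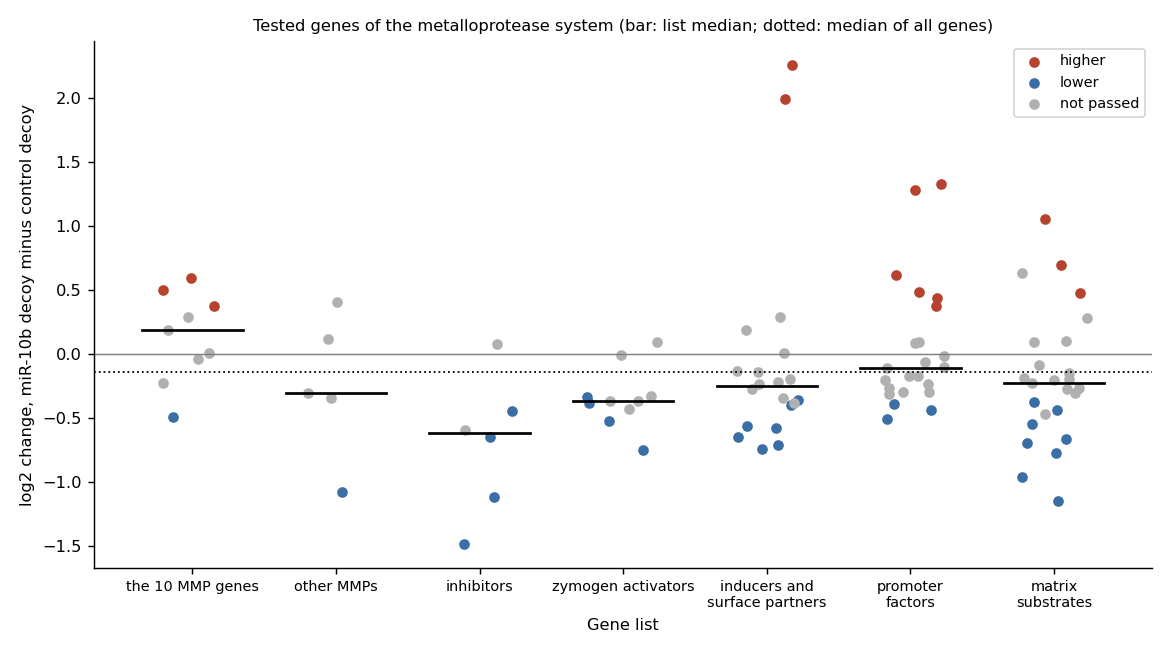
Log2 change (miR-10b decoy minus control decoy) of each tested gene in 7 lists, coloured by whether it was higher, lower or did not pass, with the list median as a bar and the median of all tested genes dotted. The median of the 9 tested metalloproteases is 0.19, while that of the 6 inhibitors is -0.62 and that of the 10 zymogen activators is -0.37.

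By the root mean square distance between array profiles over the 6 arrays, after subtracting each gene's own mean on the log2 scale, the gene most like MMP1 was MRPS30 (distance 0.0238), followed by TMED8 and ETS2. The nearest to MMP2 were SMAD1 (0.0201), VDAC1 and JAM3. The nearest to MMP3 were BLTP3A (0.0214), CD55 and ZNF7, and the nearest to MMP14 were PLCXD2 (0.0415), MED22 and ZFHX3. None of these 12 was another metalloprotease.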

How the data were processed

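RNA was measured on 6 arrays of U87-2M1 cells, 3 with the miR-10b decoy and 3 with the control decoy, labelled from 0.25 ug of total RNA per the labels' protocols. The deposited values are linear signal intensities for 54675 probe sets on each array. The submitters' processing notes name MAS5, with its version and its scaling target not given in the sources used here. Detection calls were not used here, and the number of arrays limits the precision.

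Probe sets with 1 symbol in the platform annotation and no control probe set (41091) gave 19775 genes. The brightest probe set of a gene was taken as log2(signal + 7), which understates the change of dim genes, and 13842 genes at or above the 30th percentile of the mean over arrays were kept. Groups were compared with limma 3.58.1 (R 4.3.3; lmFit, eBayes with an intensity trend, two-sided, Benjamini-Hochberg over all genes tested, threshold 0.05). The variance prior carried 196 degrees of freedom against 4 residual ones, so small p-values rest largely on variance shared across genes. No further normalization was applied. Single ratios were tested by exact permutation over arrays (scipy 1.17.1). The limma step was tested on simulated data that held no brightness difference between the groups. That test therefore cannot show how the calls depend on the scaling.

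Named were all 10 members whatever their values, TIMP1 to TIMP4, RECK and GAPDH (which did not pass, log2 change -0.18). Also named were up to 6 genes per list by smallest p, and for each called member the 3 genes nearest in profile. Other names, such as FOS, JUNB, EGR1, IL1B, COL1A1, PLAUR and the dim MMP genes, were chosen after their values were seen. Members and lists were chosen with earlier results of these data known. Alternatives tried were 2 scalings, 2 offsets, 2 filters, the mean of all probe sets, each probe set by itself, no intensity trend, no moderation, a replicate block, and each array left out. MMP and neighbour order and promoters came from RefSeq tables (GRCh38.p14); 3 of the 10 members had a promoter window there.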

Additional observations from a re-analysis of the deposited data

How the results depend on the processing

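The 3 higher members (MMP1, MMP3, MMP14) numbered 2 to 3 and the 1 lower member (MMP2) numbered 1 to 1 when arrays were left out in turn. Without the intensity trend 1 was higher (MMP14). With no moderation 0 were higher (4 at an unadjusted p under 0.05, 3 without MMP10, against 8.43% of all genes) and MMP2 was lower. With the mean of all probe sets 2 were higher and 0 lower (3 and 1 unadjusted), against 558 and 1516 of 13842 genes. With no filter 2 were higher and 1 lower, against 768 and 1629 of 19775 genes. MMP7, MMP9, MMP10 and MMP19 passed in none of the settings run.

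Of all genes, 1094 were higher and 2561 lower. Higher genes numbered 2329 after quantile normalization, 2968 after centring, 558 with the mean of all probe sets, 632 with no intensity trend and 205 with no moderation, and 731 to 1898 when an array was left out. Lower genes numbered 1629 with no filter, 1516 with the mean of all probe sets, 1327 with no intensity trend and 326 with no moderation, and 1473 to 2603 when an array was left out. Averaged over probe sets, the changes of CFAP300 and RUNX2 turned to -0.00051 and -0.0246. The MMP9 to TIMP1 difference turned to 0.00626 without miR-10b decoy replicate 1, the top of a range from -0.47 over arrays left out. The causes were not tested.

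Same-numbered arrays did not deviate together (correlations of -0.03, -0.02 and 0.03). This cannot show whether the number pairs them, and nothing in the labels says what the number marks. With the replicate block 966 genes were higher and 2186 lower, and the member counts stayed at 3 and 1. Dim signals limit MMP7, MMP9, MMP10 and MMP13 most.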
